A study of Capra hircus with 2 samples.

Results

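The miRNAs described are the 4 entries named miR-1, miR-206, miR-133a and miR-133b among the 346 conserved miRNAs in the supplementary list of the study, which set out to describe miRNAs of the goat mammary gland at 2 stages. Tissue came from Xinong Saanen dairy goats aged 2.5 years, for which the labels name no treatment, and RNA of 3 goats was pooled at each stage. Each stage was therefore represented by 1 library, with no replicate check, and all tests and intervals below compare the sampling of reads in the 2 libraries, not goats or library preparations. The stage of a library was taken from its title, since the labels give 75 days after lambing for the dry period and 320 days for peak lactation while the text of the study gives these days the other way round, and every direction below rests on that title. The total of clean reads in each file is the one that the study lists under the same stage name.

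Of the muscle miRNAs read in the goat mammary gland, miR-1 was abundant, miR-206 was present at a far lower level and miR-133a and miR-133b gave at most 50 reads in a library. Between the dry period and peak lactation, miR-1 went from 117 to 379 reads for each read of miR-206. As a share of clean reads both were lower at peak lactation, miR-206 by more. Under each other denominator used, with the counting rule described below, miR-1 was higher at peak lactation and miR-206 was still lower. Reads counted for the listed miR-133b carried, with 1 exception among those long enough to tell, the end base that belongs to miR-133a.

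The myomiRs are small RNAs that skeletal muscle, and for miR-1 and the miR-133 family also heart, make in large amounts under the control of myogenic transcription factors. Their genes lie in pairs, each pair joining a member of the miR-1/206 family to a member of the miR-133 family on one primary transcript. A mature miRNA recognises its target messenger RNAs mainly through the seed, bases 2 to 8 from its 5′ end, and in muscle miR-1 and miR-206 are known for promoting differentiation. The mammary gland is a tissue of secretory epithelium, contractile myoepithelium, fat, vessels and stroma.

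The listed sequences are shown because the shared and the differing bases decide which reads can be told apart, with the seed in capitals.

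miR-1: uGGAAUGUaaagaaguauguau
miR-206: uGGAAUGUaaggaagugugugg
miR-133a: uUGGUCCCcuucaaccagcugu
miR-133b: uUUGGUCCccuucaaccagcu

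The seed of miR-1 and miR-206 was the same, and no other of the 346 listed miRNAs had it. The first 10 bases were shared, and over all 22 bases miR-1 and miR-206 differed at 4 positions, A11G, A17G, A21G and U22G, where the base of miR-1 comes first and positions are counted from 1 at the 5′ end. The listed miR-133b began 1 base earlier than the listed miR-133a, which gave the pair different seeds in the list. From its base 2 onward, the listed miR-133b was identical to miR-133a over 20 bases, and it stopped before the final 2 bases of miR-133a. In the RefSeq gene annotation of the goat assembly ARS1.2, MIR133A and MIR1 were adjacent, between SLCO4A1 and LOC108637402, and MIR133B and MIR206 were adjacent, between IL17A and PKHD1.

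Sequencing depth was alike, with 14851375 clean reads from the dry period (the dry library) and 15712891 from peak lactation (the peak library), as tags of 18 to 44 nt. Reads counted for the conserved miRNAs made up 61.1% of the first and 14.4% of the second. These shares hold for the counting rule used here, a match without mismatch over at least 18 bases from the 5′ start. A share of clean reads and a share of conserved miRNA reads therefore give different fold changes. Levels below are reads per 1000000 clean reads (RPM) unless another denominator is named, with Wilson 95% intervals that cover counting error only, and 3 reads correspond to 0.202 and 0.191 RPM.

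miR-1 gave 106563 reads in the dry library and 60258 reads in the peak library. These counts were 7175 RPM (7132.5 to 7218.35) and 3835 RPM (3804.5 to 3865.62). miR-1 ranked 14th in the dry library and 7th in the peak library among the listed miRNAs, between miR-423-5p (7302 RPM) and miR-107 (6658 RPM) in the former and between let-7g (4338 RPM) and let-7b (3534 RPM) in the latter. Thus miR-1 stood among the abundant miRNAs of the gland in both libraries, and it supplied 99.1% and 99.7% of the reads of the 4 muscle miRNAs. It also made up 1.17% of the conserved miRNA reads of the dry library and 2.66% of those of the peak library. These shares move with let-7f and let-7a, the most abundant entries in both libraries.

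miR-206 gave 912 and 159 reads, which were 61.4 RPM (57.6 to 65.5) in the dry library and 10.1 RPM (8.66 to 11.8) in the peak library. It ranked 109th and 134th. miR-206 was therefore well above the detection floor in both libraries, but far below miR-1, its partner in seed. miR-133a gave 50 and 21 reads, or 3.37 RPM (2.55 to 4.44) and 1.34 RPM (0.874 to 2.04). miR-133b gave 21 and 6 reads, or 1.41 RPM (0.925 to 2.16) and 0.382 RPM (0.175 to 0.833), and its lower bound at peak lactation was under the level of 3 reads. The order of the entries miR-1, miR-206, miR-133a, miR-133b was the same in both libraries. The counting intervals of neighbours in that order did not overlap in either library. The miR-133a and miR-133b entries are separated here by the 5′ start of the read, as described below.

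**Figure D1:**
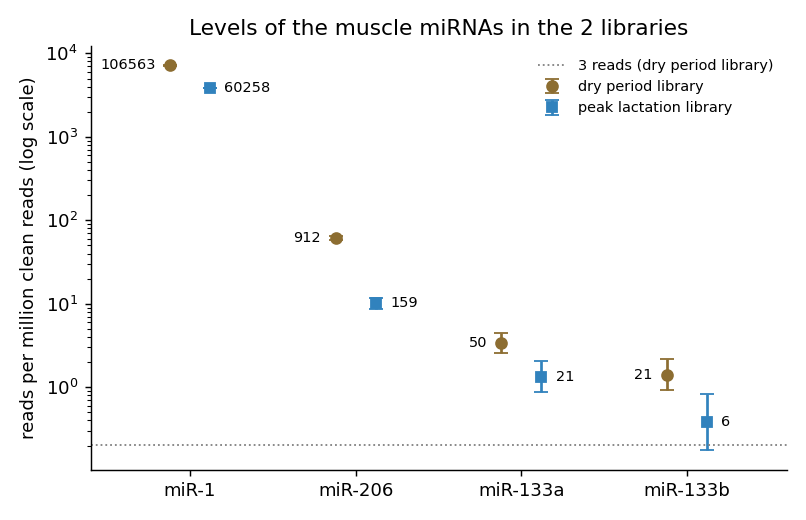
Level of each muscle miRNA in RPM, on a log axis, in the dry library (circles) and the peak library (squares), with Wilson 95% intervals of counting error and the number of reads beside each point. The levels fall from miR-1 (7175 and 3835 RPM) to the entry miR-133b (1.41 and 0.382 RPM) and the dotted line marks 3 reads.

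The miR-133 family is encoded beside miR-1 and miR-206, but its 2 entries together gave 71 reads in the dry library and 27 in the peak library, or 4.78 RPM (3.79 to 6.03) and 1.72 RPM. There were 1501 reads of miR-1 (1190 to 1893) for each read of miR-133 in the dry library, and 2232 (1534 to 3247) in the peak library. Set beside miRNAs of organs that are not in the gland, this level was low. miR-122, the miRNA of hepatocytes, gave 62 reads (4.17 RPM, 3.26 to 5.35) and the same 27 reads (1.72 RPM). The brain miRNA miR-124a gave 112 and 59 reads (7.54 RPM, 6.27 to 9.07, and 3.75 RPM, 2.91 to 4.84). The interval of the summed miR-133 overlapped that of miR-122 in both libraries and lay below that of miR-124a in both. Of the miRNAs known from muscle, miR-1 was thus abundant here while miR-133 was at the level of miR-122. The cells that the reads came from were not tested.

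miR-133 entries were checked read by read, because the listed sequences share a 20-base stretch and the listed miR-133b ends before the base that tells the family members apart. In mammals miR-133a is known to have G and miR-133b A at that position, which was not read from a goat sequence here. The tags below contain the stretch, with the base that follows it in capitals.

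miR-133a start, most frequent tag: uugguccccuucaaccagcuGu
miR-133a start, short form: uugguccccuucaaccagcuG
miR-133b start, most frequent tag: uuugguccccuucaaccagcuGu
miR-133b start, short form: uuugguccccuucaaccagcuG
miR-133b start, the tag with A: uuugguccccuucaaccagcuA

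Bases 3 to 20 of miR-133a, which lie within the stretch, were present in 75 reads of the dry library and 28 of the peak library. The next base was read in 70 and 27 of them. It was G in 69 and 27 reads, together 96 of 97 (99.0%, Wilson interval 94.4 to 99.8), and A in 1 read of the dry library. Reads that began at the listed miR-133b start and reached the end of the stretch numbered 20 and 5. Among them, G followed in 17 reads of the dry library and 5 of the peak library, and A in 1 and 0. No base followed in 2 and 0. So the reads counted for the listed miR-133b carried the miR-133a end base after a start 1 base earlier, except for that single read and those too short to tell. A single read is under the 3 reads taken as the floor, and miR-133b with its own end base was not detectable at this depth.

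The forms differed at the 5′ end. Of the reads with bases 3 to 20 of miR-133a, 65.3% in the dry library and 75.0% in the peak library began at the listed miR-133a start. A further 26.7% (20 reads) and 17.9% (5 reads) began 1 base earlier, and 8.0% (6 reads) and 7.14% (2 reads) began 1 base later. A start 1 base earlier moves the seed from UGGUCCC to UUGGUCC. The miR-1 and miR-206 reads had a far more fixed start. For miR-1, 99.8% of 106627 reads in the dry library and 99.9% of 60281 reads in the peak library began at the listed base. One miR-206 read of 915 and one of 157 began elsewhere.

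**Figure D2:**
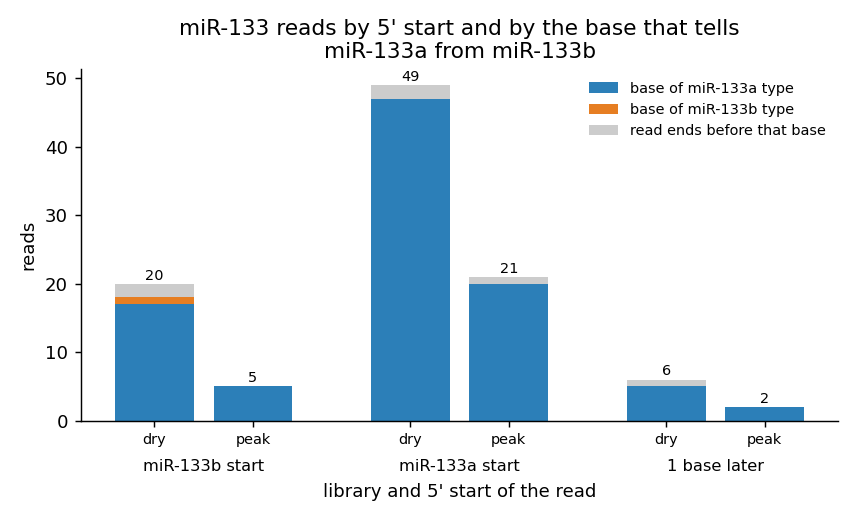
Reads that hold bases 3 to 20 of miR-133a, within the stretch shared with miR-133b, by library and by the 5′ start of the read. Colours give the base that follows the stretch (miR-133a type, miR-133b type, or not read). Nearly all bars are of the miR-133a type, including those at the miR-133b start (17 of 20 and 5 of 5 reads), and the miR-133b type appears in 1 read.

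The stages were then compared. Fewer cells of a type and less RNA per cell cannot be told apart in RNA of bulk tissue. Fold changes are on the log2 scale with the dry period as the base, and calls required a change of more than 1 in either direction together with an adjusted p below 0.01 from the exact Audic-Claverie test, two-sided and adjusted by Benjamini-Hochberg over the 257 conserved miRNAs that reached 1 RPM in either library. By clean reads 174 of the 257 were called lower (67.7%) and 3 higher (1.17%), and the median log2 fold change was -1.44 (quartiles -2.15 and -0.92). Of the 4 muscle miRNA entries 3 were called lower, close to the share among all conserved miRNAs, and the median of the 4 was -1.61. The entry miR-133b is among the 3, though its reads carried the miR-133a end base where it was read, with 1 exception.

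miR-206, at 61.4 and 10.1 RPM, was 6.07-fold lower at peak lactation, with a log2 fold change of -2.60 (-2.84 to -2.36) and an adjusted p of 5.442e-138 by the Audic-Claverie exact test. It was lower under each of 4 denominators, though under conserved miRNA reads the change was smaller than the fold threshold. Its change was below the median of all conserved miRNAs by 1.16 on the log2 scale, and 39 of the 257 tested miRNAs fell further. The miRNAs with the nearest change among the 201 with at least 100 reads over both libraries were miR-455* (-2.60), miR-3432 (-2.59) and miR-199c (-2.58), a likeness that rests on 1 pair of libraries.

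miR-1, at 7175 and 3835 RPM, was 1.87-fold lower by clean reads (log2 fold change -0.90, -0.92 to -0.89), which missed the fold threshold, and it was higher at peak lactation under each of the other 3 denominators. Against the median it lay 0.54 higher on the log2 scale, and 62 of the 257 tested miRNAs had a higher log2 fold change. The fold change of miR-1 was thus smaller, and that of miR-206 larger, than for most conserved miRNAs by clean reads. Nearest to miR-1 in change, among the 118 miRNAs with at least 1000 reads, were miR-148b (-0.90), miR-152 (-0.92) and miR-379 (-0.92).

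miR-133a was 2.52-fold lower by clean reads (log2 fold change -1.33, -2.06 to -0.61, adjusted p = 2.695e-04, Audic-Claverie exact test), but it did not pass the test under any of the other 3 denominators and its sign turned under DESeq2 size factors and conserved miRNA reads. The entry miR-133b was 3.70-fold lower by clean reads (log2 fold change -1.89, -3.16 to -0.62, adjusted p = 0.00281, same test), and here too the call was lost under the other 3 and the sign turned with conserved miRNA reads. Summed, the miR-133 reads changed by -1.48 on the log2 scale (-2.11 to -0.84), an interval that holds the median of all conserved miRNAs, -1.44. The miR-133 change was thus not distinguishable from that of the typical miRNA at this depth.

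**Figure D3:**
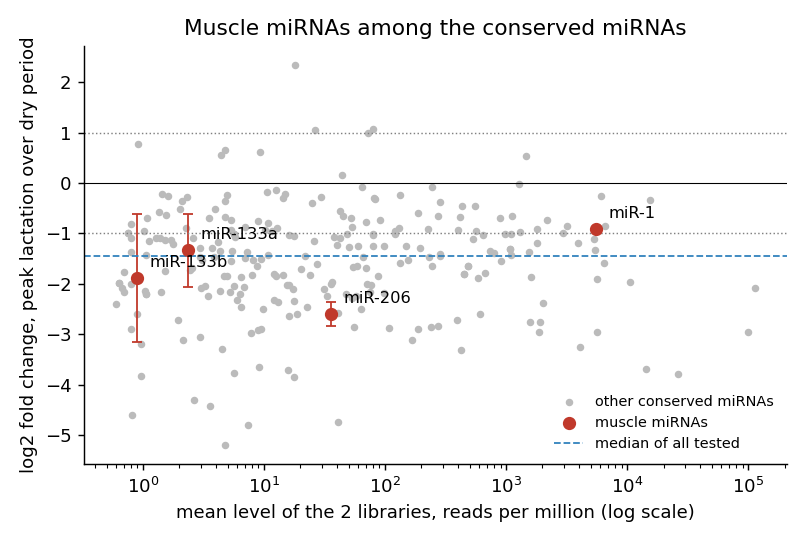
Log2 fold change (peak lactation over dry period, by clean reads) against the mean RPM of both libraries, on a log axis, for the 257 tested conserved miRNAs, with the 4 muscle miRNAs in red with 95% intervals of counting error. miR-206 (-2.60) lies below the dashed median (-1.44) and miR-1 (-0.90) above it, while both miR-133 intervals cross it; miR-1, miR-133a and miR-133b turn sign under other denominators.

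The denominator moved all conserved miRNAs together. The median log2 fold change was -1.44 by clean reads, -0.14 with TMM factors of edgeR, -0.04 with size factors of DESeq2 and 0.64 by conserved miRNA reads, and 174, 48, 41 and 15 miRNAs were called lower and 3, 22, 27 and 84 higher. miR-1 was at -0.90, 0.40, 0.49 and 1.18 in the same order, and was called higher by conserved miRNA reads. miR-206 was at -2.60, -1.30, -1.21 and -0.52, called lower under the first 3. The conserved miRNA reads include let-7f (2718302 and 678325 reads) and let-7a (2628486 and 359477), the most abundant entries in both libraries. By clean reads these changed by -2.08 and -2.95, more than miR-1. The change of miR-1 against conserved miRNA reads without let-7 was not computed. In all 4, miR-1 stood 0.54 above the median, miR-133a 0.11 above, miR-133b 0.45 below (-0.45) and miR-206 1.16 below (-1.16). The order of the muscle miRNAs in change did not depend on the denominator, since a denominator shifts every miRNA by the same amount.

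**Figure D4:**
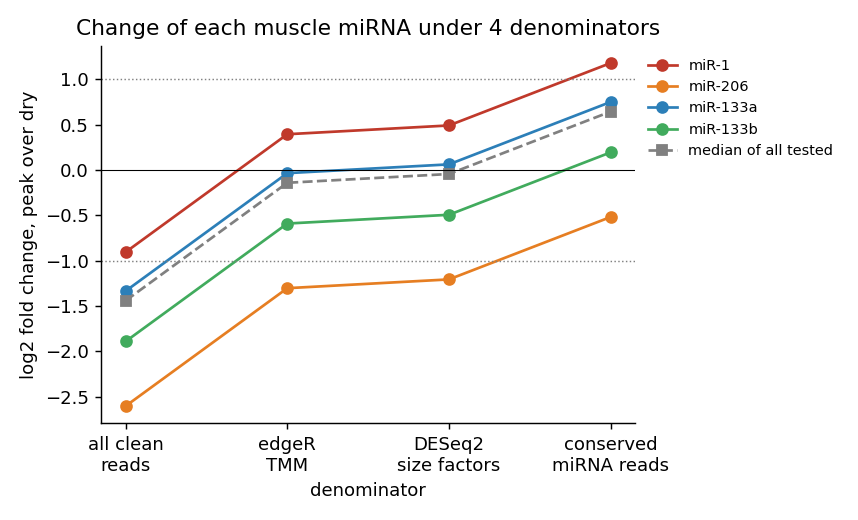
Log2 fold change of each muscle miRNA and the median of all tested conserved miRNAs (grey squares) under 4 denominators, with dotted lines at the thresholds of -1 and 1. All lines rise in parallel; miR-1 goes from -0.90 to 1.18, crossing 0, while miR-206 goes from -2.60 to -0.52 and stays under 0.

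Ratios within a library need no denominator, and all 3 pairs of the miR-1, miR-206 and summed miR-133 reads were compared by Fisher's exact test, two-sided, adjusted over the 3 pairs. miR-1 to miR-206 was 117 (109 to 125) in the dry library and 379 (324 to 443) in the peak library, a 3.24-fold rise (log2 1.70, 1.45 to 1.94, adjusted p = 1.544e-53, exact test). miR-206 to miR-133 fell from 12.8 (10.1 to 16.3) to 5.89 (3.93 to 8.83), a log2 change of -1.13 (-1.81 to -0.44, adjusted p = 0.00323, exact test). For miR-1 to miR-133 the log2 change was 0.57 (-0.07 to 1.21, adjusted p = 0.0918, exact test), which did not pass the threshold of 0.01, and its interval holds no change. The change of miR-206 thus differed from those of miR-1 and of miR-133. Whether miR-1 and miR-133 differed in change could not be decided with 71 and 27 reads of miR-133. The change of miR-206 to miR-133 missed the threshold when 1 mismatch was allowed (log2 -0.63, adjusted p = 0.0792, exact test).

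miR-1 and miR-206 reads could be kept apart at the bases where they differ. Among 22-nt tags with a single change from the listed miR-1, A11G was found in 61 and 50 reads, A17G in 33 and 21, A21G in 58 and 27, and U22G in 60 and 26. Counting every single change, position 11 had 108 and 86 reads and position 17 had 66 and 35, against a median of 83 and 43 reads over positions 1 to 18. Single changes at position 11 were thus above the median and those at position 17 below it in both libraries, while the most frequent of positions 1 to 18 was position 1 (409 and 235 reads). The reads counted for miR-206 match both of its inner differences from miR-1 where they are read, since the identical stretch had to reach base 18. Allowing 1 mismatch brings in reads that fit miR-1 and miR-206 equally over the first 18 bases, 122 and 91 of them. The 22-nt tags among them with only A11G or A17G keep the miR-1 bases 21 and 22, and lie nearer to miR-1. With 1 mismatch allowed, miR-206 had 1063 and 260 reads.

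The 3′ ends of miR-1 and miR-206 also differed. The full listed form was 84.0% (83.8 to 84.2) of miR-1 reads in the dry library and 84.6% (84.3 to 84.8) in the peak library. For miR-206 it was 56.6% (53.3 to 59.8) and 44.7% (37.1 to 52.4). By reads, miR-206 therefore had the smaller share at the listed end, with intervals that did not overlap those of miR-1 in either library, whereas over unique tags the order turned. Frequent forms with a changed or an added base are shown, with the bases that depart from the listed end in capitals.

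miR-1, changed last base: uggaauguaaagaaguauguaA
miR-1, 1 base added: uggaauguaaagaaguauguauU
miR-206, 1 base added: uggaauguaaggaaguguguggA
miR-206, 1 base added: uggaauguaaggaaguguguggU
miR-206, changed last base: uggaauguaaggaagugugugU

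In miR-1 reads the tag with a final A was 3.28% and 2.83% of reads, and that with an added U 1.56% and 1.91%. Reads with 1 added base made up 2.15% and 2.62% of miR-1, against 20.8% and 15.1% of miR-206. In miR-206 the added A was seen in 118 and 16 reads and the added U in 72 and 8. The first added base of miR-1 was most often U (72.5% and 72.8% of extended reads), whereas that of miR-206 was most often A (62.1% and 66.7% of 190 and 24 reads). Whether an added base came from the precursor or from a tailing enzyme could not be told, as no hairpin sequence was used here.

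Between the libraries, the share of miR-206 at the listed end fell by 11.9 percentage points at peak lactation (Fisher's exact test, two-sided, odds ratio 0.619, adjusted p = 0.00572). Shorter forms of miR-206 were 8.99% in the dry library and 13.8% in the peak library, and forms with differing last bases were 7.46% and 15.7%, differences that were not tested. The share of miR-1 at the listed end was higher by 0.574 percentage points (odds ratio 1.04, adjusted p = 0.00404, Fisher's exact test), a far smaller difference than that of miR-206. Both p-values were adjusted over these 2 comparisons.

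**Figure D5:**
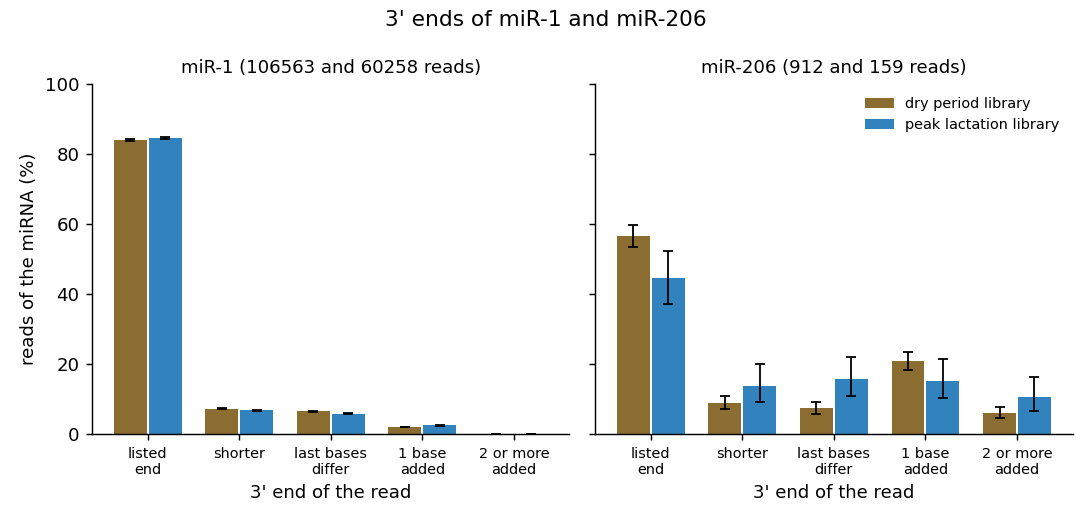
Percent of reads of miR-1 (left) and miR-206 (right) by 3′ end in the dry and peak libraries, with Wilson 95% intervals of counting error. The listed end holds 84.0% and 84.6% of miR-1 but 56.6% and 44.7% of miR-206, whose reads with 1 added base (20.8% and 15.1%) are far more frequent than those of miR-1 (2.15% and 2.62%).

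Levels of other miRNAs that mark tissues and cell types were read beside those of the muscle miRNAs, by clean reads. Of 4 other miRNAs linked to muscle, 2 were called lower and 0 higher (median log2 fold change -0.98), beside 67.7% lower and a median of -1.44 over all tested. miR-499, which is encoded within a myosin gene of slow muscle and heart, had 57.6 RPM in the dry library and 26.9 RPM in the peak library (log2 fold change -1.10, called). Its counting interval overlapped that of miR-206 in the dry library (53.8 to 61.6) and lay above it in the peak library (24.4 to 29.5). In smooth muscle miR-143 and miR-145 share a cluster, and miR-145 was called lower (-2.76) while miR-143 missed the fold threshold (-0.86). miR-486, which muscle and red cells both make, was at 0.15 (adjusted p = 0.0640, Audic-Claverie exact test).

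The markers of other cell types are to be read beside the 67.7% called lower, the 1.17% called higher and the median of -1.44 over all tested conserved miRNAs. Of 6 epithelial miRNAs 3 were called lower (summed 2687 RPM in the dry library and 1342 RPM in the peak library, median -1.10), and of 4 stromal miRNAs 4 were (10204 and 1330 RPM, median -2.48). Of 5 immune cell miRNAs 4 were called lower (497 and 178 RPM, median -1.64). Of 3 red blood cell miRNAs 2 were called higher (110 and 190 RPM, median 1.06), and neither of the 2 endothelial ones was called (129 and 81.4 RPM, median -0.48). All 3 of the organ miRNAs, miR-122 and the identical sequences miR-124a and miR-124b, were called lower (median -1.01). The other denominators raise each of these log2 values by as much as the median of all conserved miRNAs, and by conserved miRNA reads only the stromal median of these lists stays below 0. None of the markers listed had 0 reads in either library, and the part of these cell types in the change of the muscle miRNAs was not tested.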

How the data were processed

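Small RNA libraries of goat mammary gland were compared between the dry period (1 library) and peak lactation (1 library). The authors trimmed the reads, dropped those under 18 nt and deposited each distinct sequence with its counts of clean reads, neither normalized nor aligned. CASAVA is named in the submitters' processing notes. A tag was counted for the listed conserved miRNA that it matched without mismatch over the most bases counted from its 5′ start (minimum 18), and ties counted for each. Counts were divided by clean reads and multiplied by 1000000. A count of 0 was set to 0.01 RPM. Efficiency of adaptor ligation differs between sequences and was not corrected.

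The miRNAs named are the 4 muscle miRNAs, those of the marker lists (not all printed) and the 3 nearest in log2 fold change to miR-1 and miR-206. The neighbours of miR-1 in rank and the most abundant entries, let-7f and let-7a, are named as well. The members and lists were chosen with earlier results of these data known. Tests were those stated in the text, with Wilson 95% intervals. Alternatives covered the counting rule, the denominator (TMM of edgeR 4.0.16, size factors of DESeq2 1.42.0, in R 4.3.3, factors only), the filter and the test. The computing was done with scipy 1.17.1 and numpy 2.4.6 under Python 3.11.15, and figures with matplotlib 3.10.9. The counting and test were tried on simulated data that held read sampling only. Variation between goats or libraries was not simulated, so the simulation does not show how calls between stages would hold up to it. Passenger strands were not analysed here.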

Additional observations from a re-analysis of the deposited data

How the results depend on the processing

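No paired analysis was possible because each stage had 1 library, and for the same reason no library could be left out. The denominator changed the calls, since it shifts every miRNA alike. With conserved miRNA reads, the log2 fold change of miR-1 was 1.18, of miR-206 -0.52, of miR-133a 0.75 and of miR-133b 0.20, with 15 miRNAs lower and 84 higher. With TMM factors they were 0.40, -1.30, -0.033 and -0.59, with 48 and 22. With DESeq2 size factors they were 0.49, -1.21, 0.063 and -0.49, with 41 and 27. For fold changes, the other counting rules were run by clean reads only. The direction of miR-1 under another rule and denominator together was not tested. The other counting rules, filters and tests kept the direction and call of each muscle miRNA, except that miR-133b by identical tags had 2 and 0 reads. It was then under 1 RPM in both libraries and gave no value. With 1 mismatch allowed, the ratio of miR-206 to miR-133 changed by -0.63 (log2, adjusted p = 0.0792, Fisher's exact test), as reads that fit miR-1 equally were added. With any 5′ start, miR-133a had 75 and 28 reads and miR-133b 76 and 29, nearly all of them the same reads, which entered the miR-133 ratios once. Over unique tags instead of reads, the listed end was 1 of 112 and 1 of 94 tags of miR-1 (0.893% and 1.06%) and 1 of 26 and 1 of 20 tags of miR-206 (3.85% and 5%). Each form then counts once, so the order of the pair turned with the number of tags and says nothing on the read shares. Counts of 6 to 50 reads limit what could be seen of miR-133.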
